A study of Arabidopsis thaliana with 40 samples.

Results

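The interaction between loss of AOX1A and the response to moderate light with drought (MLD) was measured in Arabidopsis leaves on 14 of the 40 arrays of the study, all those of the aox1a set. For each probe set the interaction is the MLD change in aox1a, averaged over 2 mutant lines, minus the MLD change in wild type. A positive interaction means that the mutant's change lay above that of wild type and a negative one that it lay below, whatever the sign of either change. The groups were WT(Col0) untreated (3 arrays) and under MLD (3 arrays), and aox1a line 1 and line 2, each untreated (2 arrays) and under MLD (2 arrays). All plants were 4 weeks old per the labels. MLD plants received about 350 µE of light and no water, and were sampled at 4 d, while untreated plants stayed for 4 d at 100 µE with water. Water was withheld from 4 d before the transfer, so light and drought cannot be told apart. The labels name no allele for either line and do not say whether arrays came from separate plants, so p-values measure the spread between arrays only. The other arrays hold rpoTmp (14 with its wild type) and the aox1a:rpoTmp double mutant (12 with its wild type).

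AOX1A encodes the main stress-induced form of the alternative oxidase in leaves, an enzyme of the inner mitochondrial membrane that passes electrons from ubiquinol to oxygen without pumping protons. It lets the respiratory chain run when the cytochrome pathway is limited and is known for restraining over-reduction of the chain. Under light with drought, closed stomata limit carbon fixation, and part of the reductant made in chloroplasts is exported and oxidised in mitochondria. In the probe table used here no probe set is paired with AOX1A alone, so the loss of its transcript could not be checked.

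Values are log2 intensities of the deposited table. Wild-type values are given for replicates 1, 2 and 3, and aox1a values for line 1 replicates 1 and 2 followed by line 2 replicates 1 and 2. The lower quartile of each array lay between 2.48 and 2.54, so values near 2 to 3 are at the floor of the scale and a fall that reaches them is measured only in part. A probe set was called at a limma adjusted p below 0.05 over all 22746 probe sets. RCA, the Rubisco activase of leaf mesophyll, was bright on all arrays (14.30 to 14.61), the floral gene UFO (1.80 to 1.87) and the root gene EXPA7 (2.16 to 2.23) were at the floor, and the guard cell gene FAMA lay between 5.35 and 6.40. These were the only markers fixed for their cell types that had a single-gene probe set, 1 each, so admixture of cell types was not tested further. In leaf RNA, fewer cells of a type and less RNA per cell cannot be told apart.

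A wild-type array stood apart. Untreated wild-type replicate 2 correlated with the other 2 untreated wild-type arrays at r = 0.977 and 0.981, while those 2 correlated with each other at 0.996, and it correlated with the stressed wild-type arrays at 0.979 to 0.990. At 57.3% of the called probe sets, and at 44% of all, this array lay farther from the mean of replicates 1 and 3 than they lay from each other, in the direction of the MLD mean. Results are therefore given with and without it. The count of interaction calls was lowest without another array, wild-type MLD replicate 1, at 2580 probe sets; the counts of the single responses and of their classes moved most with other arrays, named below.

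More probe sets were called as responding to MLD in aox1a than in wild type. In wild type 763 probe sets changed under MLD (3.35% of those tested) and in aox1a 11837 (52%). These counts were 3119 for wild type without its untreated replicate 2 and 102 without its MLD replicate 3, so the wild-type count depends on single arrays. Among brighter probe sets only, those with a mean of at least 5 in some group, the counts were 1216 in wild type and 8529 in aox1a. These counts are out of fewer probe sets than the 22746 tested. With this filter the aox1a calls of a decrease went from 6190 to 3505, and those of an increase from 5647 to 5024. Part of the 52% therefore came from dim probe sets. The median absolute log2 change over all probe sets, which needs no call, was 0.106 in wild type (0.129 without untreated replicate 2) and 0.265 in aox1a. Across all probe sets the aox1a change regressed on the wild-type change with a slope of 1.37 (r = 0.617), and with a slope of 1.38 (r = 0.758) without untreated replicate 2. This is a description across probe sets of the same arrays.

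The interaction was called at 5093 probe sets (22.4%), 2843 higher (12.5%) and 2250 lower (9.89%). Without untreated wild-type replicate 2 it was called at 4079 (17.9%), 2253 higher (9.91%) and 1826 lower (8.03%), and 75.6% of the 5093 were among them. At 5084 of the 5093 both lines gave an interaction of the same sign. The calls were made on the mean of the lines, and both lines were set against the same wild-type arrays, so this is no separate evidence. With line 2 alone 1431 of the 5093 were called. Whichever of the 14 arrays was left out, 2456 were called. Sizes ran from -8.16 to 5.07 on the log2 scale. An interaction of over 4-fold was called at 856 probe sets, 294 higher and 562 lower (587 without untreated replicate 2). Counted as genes with a single-gene probe set, 2684 of 13355 were called (20.1%), 1406 higher (10.5%) and 1278 lower (9.57%). These last 2 shares are the background for every list below.

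**Figure D1:**
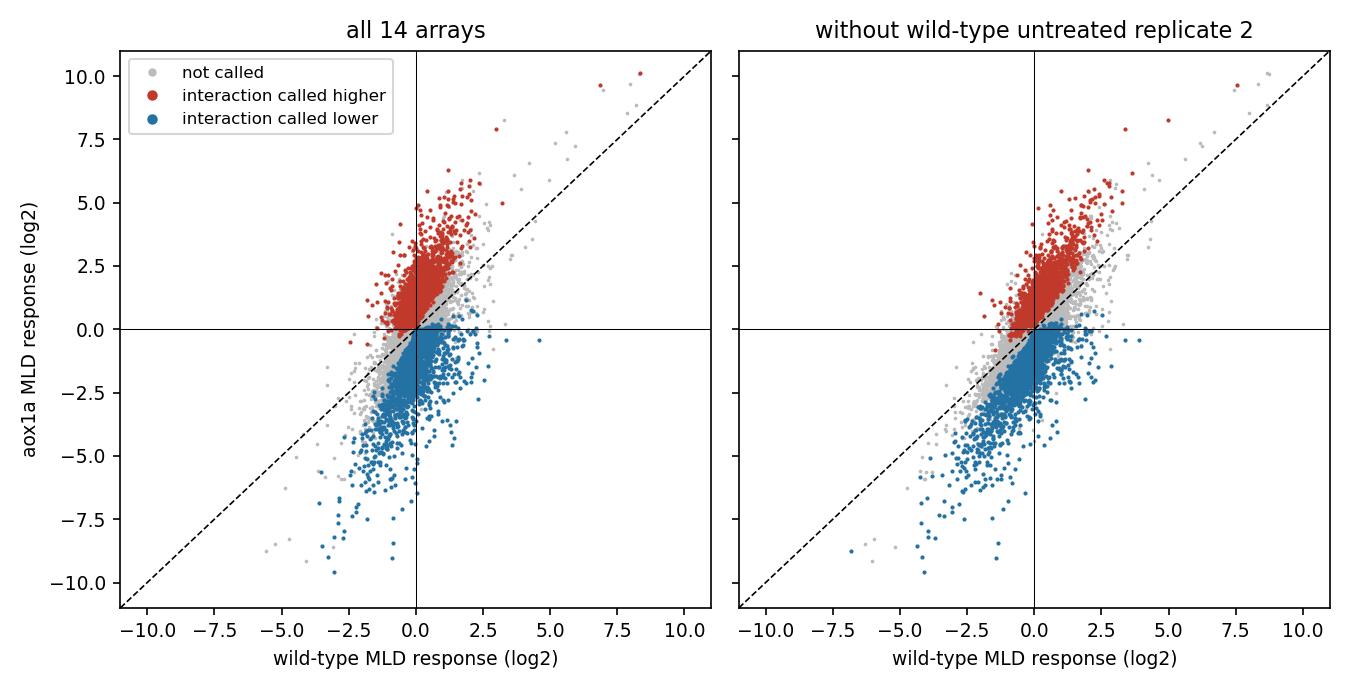
The MLD response of aox1a (vertical axis, log2 change) is plotted against that of wild type (horizontal axis, log2 change) for 22746 probe sets, with all arrays on the left and without untreated wild-type replicate 2 on the right. Red and blue points are probe sets whose interaction was called higher or lower, and the dashed line marks equal responses. Called points lie mainly above it on the side of increases and below it on the side of decreases.

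The interaction is the difference between aox1a and wild type under MLD minus that in untreated plants. Of the 5093 called probe sets, 2279 also differed between aox1a and wild type under MLD (12.4% of all probe sets did) and 1241 differed in untreated plants (6.85% of all did). Both differences were called at 273, and at 270 of these they had opposite signs. The larger of the 2 estimated differences was the one under MLD at 2841. These comparisons share arrays with the interaction, so the counts describe its parts and are no separate evidence.

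By the calls of the responses, 4610 of the 5093 were called in aox1a and not in wild type, here termed gained. A further 152 were called in both with a larger change in aox1a (amplified), 7 in both with a smaller change (weakened), 103 in wild type alone (lost), 53 in both with opposite signs (reversed) and 168 in neither. Without untreated wild-type replicate 2 these counts were 2867 gained, 933 amplified, 20 weakened, 131 lost, 75 reversed and 53 in neither. Leaving out wild-type MLD replicate 3 left 15 lost, 21 amplified and 4 reversed, and leaving out untreated replicate 1 left 13 lost. By the sign of the estimates alone, a split added after the data were seen, 2744 changed in the same direction in both genotypes and by more in aox1a, 52 in the same direction and by less, and 2297 in opposite directions. Without untreated replicate 2 these were 2745, 54 and 1280. Both counts depended on single arrays. When 1 array was left out, the first ran from 1451 (without wild-type MLD replicate 1) to 2761 and the last from 1114 (without the same array) to 2832, and with line 2 alone they were 681 and 760.

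The plot of single genes by array shows both patterns. HIS1-3, AMY1, STZ and ATG8B climbed in aox1a from below the wild-type level, LHCB4.2 and TBL45 dropped in aox1a to below the stressed wild type, and GLC and GH9B8 increased in wild type only.

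**Figure D2:**
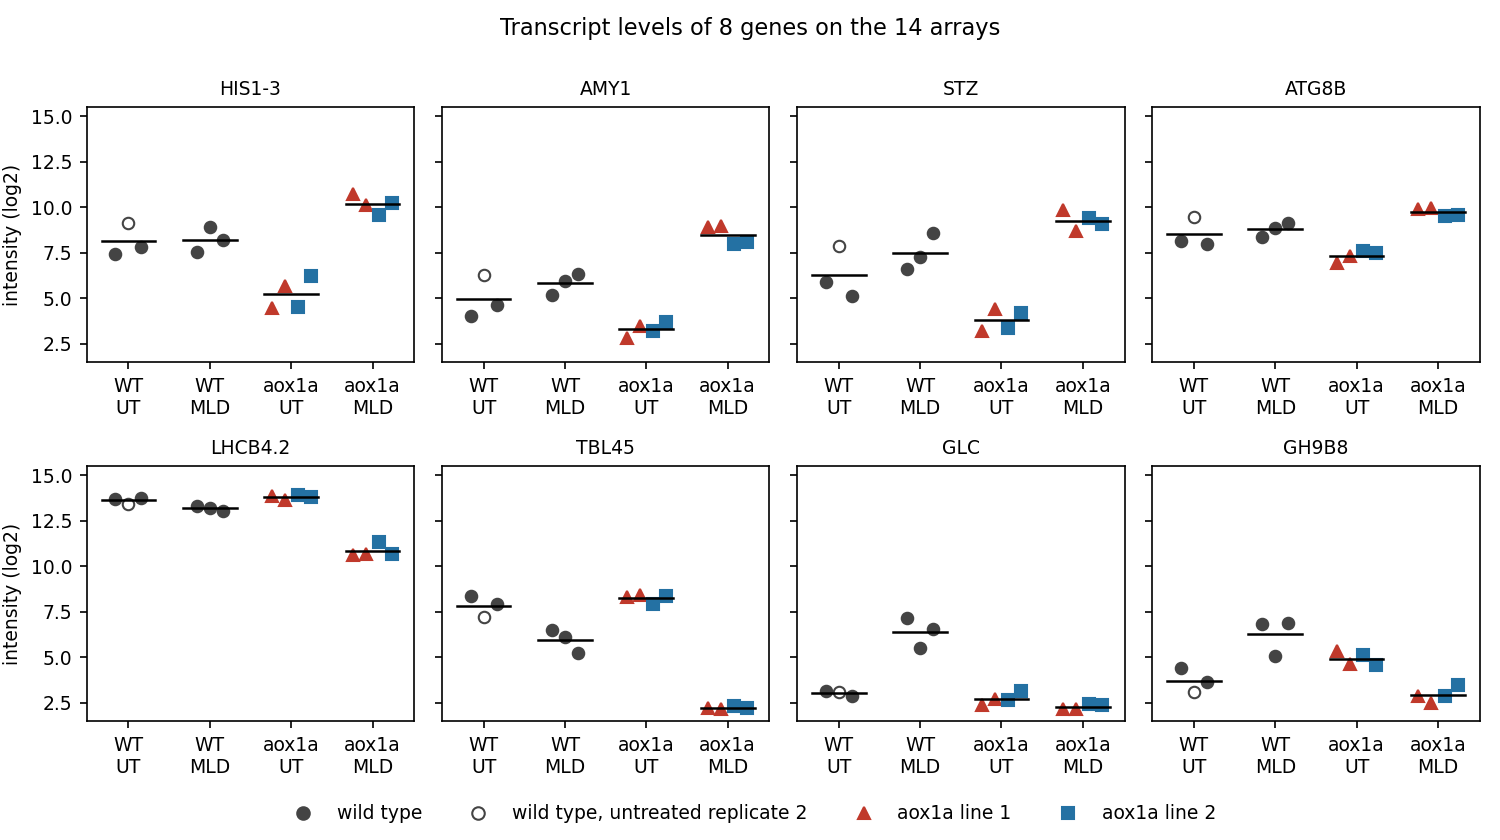
Each point is the log2 intensity of a gene on 1 array, in wild type (circles, with untreated replicate 2 hollow) and aox1a line 1 (triangles) and line 2 (squares), untreated (UT) and under MLD. Horizontal bars are group means. Among the 8 genes GLC rose from 3.06 to 6.40 in wild type under MLD and stood at 2.30 in stressed aox1a.

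Most nuclear genes of the photosystems and their antennae had a lower interaction. Of 11 measured, 8 had a lower interaction (background 9.57%) and 1 a higher one, with a median interaction of -0.77 against -0.01 over all genes. The counts were the same without untreated wild-type replicate 2, 7 or 8 lower whichever array was left out, and 6 lower with line 2 alone. LHCB4.2 read 13.72, 13.45 and 13.74 in untreated wild type and 13.32, 13.24 and 13.03 in wild type under MLD. The aox1a arrays read 13.85, 13.68, 13.92 and 13.82 untreated and 10.60, 10.67, 11.33 and 10.69 under MLD. LHCB4.2 is a minor antenna protein of photosystem II; its stressed aox1a values were the only ones under 13, and the untreated groups overlapped. The interaction was -2.55 ± 0.21 (SE, adjusted p = 0.000842), with a change of -2.99 ± 0.14 in aox1a and of -0.44 ± 0.16 in wild type, where it was not called (adjusted p = 0.174). PSAN measured 13.59, 13.14 and 13.53 in untreated wild type and 13.35, 13.19 and 13.12 in stressed wild type. In aox1a the values were 13.82, 13.80, 13.98 and 13.76 untreated and 11.98, 11.37, 11.86 and 11.94 under MLD. PSAN, the photosystem I subunit near the plastocyanin docking site, was likewise lowest on the stressed aox1a arrays, but its untreated aox1a values all lay above those of untreated wild type; its interaction was -1.85 ± 0.22 (SE, adjusted p = 0.00292). The other members called lower were PSBY, LIL3:2, LHCB4.1, PSAE-1, PSB27 and PSBW, with interactions between -0.58 and -1.39. LIL3:1 (-0.84) and LHCB4.3 (-0.42) were not called.

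PGRL1B, which takes part in cyclic electron flow around photosystem I, went the other way. PGRL1B stood at 9.12, 9.95 and 9.23 in untreated wild type and at 9.98, 10.37 and 10.03 in wild type under MLD. The 4 untreated aox1a arrays gave 8.53, 8.51, 8.85 and 8.77, and the 4 stressed ones gave 10.60, 10.47, 11.01 and 10.52. The stressed aox1a values lay above all wild-type values and the untreated ones below them. Its interaction was 1.29 ± 0.29 (SE, adjusted p = 0.0162), and it was not called with line 2 alone at 1.26 (adjusted p = 0.0625). Of 3 measured genes of carbon fixation, RCA had a small higher interaction of 0.30 ± 0.06 (SE, adjusted p = 0.0116), which was not called among brighter probe sets only, at 0.30 (adjusted p = 0.111). SBPASE (-0.22) and PRK (0.09), enzymes of the Calvin cycle, were not called.

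Genes of chlorophyll synthesis had lower calls only. Of 11 measured members of tetrapyrrole synthesis, 6 had a lower interaction and none a higher one, with a median of -1.28. The count was 6 without untreated wild-type replicate 2 but 2 without wild-type MLD replicate 1, 5 with line 1 alone and 1 with line 2 alone. CHLM read 11.34, 10.20 and 11.36 in untreated wild type and 10.60, 10.44 and 10.08 in wild type under MLD. Untreated aox1a gave 11.89, 11.59, 11.89 and 11.64 and stressed aox1a 8.52, 8.55, 8.70 and 8.88. CHLM, the magnesium protoporphyrin methyltransferase, was lower in stressed aox1a than on any other array, and its interaction was -2.49 ± 0.38 (SE, adjusted p = 0.00562). PORB measured 12.68, 10.94 and 12.57 in untreated wild type and 11.19, 10.66 and 10.21 in stressed wild type. For aox1a they were 12.93, 13.03, 12.75 and 12.75 untreated and 8.58, 8.66, 9.66 and 8.79 under stress. PORB, a light-dependent protochlorophyllide reductase, fell in aox1a by 3.94 on the log2 scale, and its interaction was -2.56 ± 0.60 (SE, adjusted p = 0.0194). Without wild-type MLD replicate 1 the PORB interaction was -2.31 (adjusted p = 0.0534), and with line 2 alone it was -2.14 (adjusted p = 0.104). CHLI2, HEME1, HEME2 and HEMB1 were the other members called lower, at -2.04, -2.42, -1.96 and -1.28. Of the 5 not called, hemb2, hemf2 and HEMA3 lay at the floor in all groups.

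Of 69 plastid-encoded genes measured, 4 had a higher and 9 a lower interaction, beside 10.5% and 9.57% of all genes (3 and 8 without untreated wild-type replicate 2, and 1 and 4 without wild-type MLD replicate 1), and the median was -0.36. psbI stood at 10.67, 10.22 and 9.89 in untreated wild type and at 10.30, 9.69 and 10.23 in wild type under MLD. Values of 10.67, 10.67, 10.86 and 10.63 were found in untreated aox1a, and of 8.50, 9.09, 8.99 and 8.11 in stressed aox1a. This small photosystem II subunit was lower in stressed aox1a than elsewhere, with an interaction of -1.85 ± 0.38 (SE, adjusted p = 0.0132). Another small subunit of photosystem II, psbK, gave -1.73 ± 0.42 (SE, adjusted p = 0.0216) and was not called without wild-type MLD replicate 1 at -1.57 (adjusted p = 0.0593) or with line 2 alone at -1.59 (adjusted p = 0.091). Among the 4 higher ones were petD, a subunit of the cytochrome b6f complex (1.73 ± 0.53 (SE, adjusted p = 0.047), called in 3 of the 14 fits that each left out 1 array), and psbA, the D1 protein of photosystem II (0.76 ± 0.19 (SE, adjusted p = 0.0258), called in 8 of 14). Standard Affymetrix labelling primes on poly(A) tails, which most organelle transcripts lack, and how this affects their readings was not tested.

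More genes for building and loosening the cell wall had a lower than a higher interaction. Of 83 measured, 16 were lower and 2 higher (background 9.57% and 10.5%), and 15 and 2 without untreated wild-type replicate 2. The lower count ran from 14 to 19 when each array was left out, and was 8 with line 2 alone. Only 32 of the 83 reached a mean of 5 in any group, and the median was -0.08. XTH32 read 6.98, 4.74 and 6.54 in untreated wild type and 8.64, 6.76 and 7.31 in wild type under MLD. On the aox1a arrays it stood at 8.35, 7.46, 7.77 and 7.87 untreated and at 2.77, 3.74, 5.95 and 4.55 under MLD. XTH32, a xyloglucan endotransglucosylase/hydrolase, was below 6 on all stressed aox1a arrays and above 6 on all stressed wild-type ones. Its interaction was -5.09 ± 0.92 (SE, adjusted p = 0.0088), and -4.05 (adjusted p = 0.0628) with line 2 alone. TBL45 measured 8.37, 7.23 and 7.92 in untreated wild type and 6.48, 6.12 and 5.27 in stressed wild type. Mutant arrays showed 8.30, 8.46, 7.96 and 8.40 untreated and 2.22, 2.18, 2.35 and 2.21 under MLD. TBL45 belongs to a family that acetylates wall polysaccharides; it fell in both genotypes, and in aox1a to the floor, with an interaction of -4.16 ± 0.45 (SE, adjusted p = 0.00249). CSLC04, a glucan synthase of xyloglucan backbones (-3.53), and the endoglucanase-family genes GH9C2 (-4.05) and GH9B7 (-2.98) also had lower interactions; these 3 were named after their values were seen.

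CSLD2, a cellulose synthase-like gene, was the larger of the 2 wall genes called higher. The highest estimate of the list, 2.57, belonged to a member that was not called. CSLD2 stood at 7.62, 8.30 and 7.48 in untreated wild type and at 7.24, 7.87 and 7.87 in wild type under MLD. The aox1a arrays read 6.59, 7.15, 6.48 and 7.38 untreated and 8.97, 9.13, 8.98 and 8.81 under MLD. Its stressed aox1a values lay above all others, and the interaction was 2.21 ± 0.40 (SE, adjusted p = 0.00892). The other was AT2G31110, at 1.69, which was called in 6 of the 14 fits that each left out 1 array.

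Several genes of senescence, autophagy and nitrogen recycling had higher interactions. Of 19 measured, 8 were higher and none lower (background 10.5%), with a median of 0.67. The count was 7 without untreated wild-type replicate 2, 3 without wild-type MLD replicate 1 and 1 with line 2 alone. ATG8B read 8.15, 9.46 and 8.01 in untreated wild type and 8.38, 8.87 and 9.13 in wild type under MLD. In aox1a the values were 6.94, 7.32, 7.59 and 7.51 untreated and 9.94, 9.98, 9.53 and 9.61 under MLD. ATG8B encodes an ATG8 protein of the autophagosome membrane. Its untreated aox1a values lay below and its stressed ones above all wild-type values, with an interaction of 2.17 ± 0.47 (SE, adjusted p = 0.0146). GAMMA-VPE, a vacuolar processing protease, had means of 14.15 ± 0.41 (SD, n = 3) in untreated and 14.20 ± 0.18 (SD, n = 3) in stressed wild type. In aox1a its means were 12.64 ± 0.83 (SD, n = 4) untreated and 14.71 ± 0.06 (SD, n = 4) under MLD. It was not called in wild type and rose by 2.07 in aox1a, with an interaction of 2.02 ± 0.41 (SE, adjusted p = 0.0122). With line 2 alone the interactions were 1.76 (adjusted p = 0.0894) for ATG8B and 1.45 (adjusted p = 0.104) for GAMMA-VPE. The 3 other ATG8 genes called were APG8A, ATG8G and ATG8D, at 1.47, 1.25 and 1.09. ATG8C, ATG8E, ATG8F, APG8H and ATG8H were not called, and ATG8H had the lowest interaction of the list, at -0.41.

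Starch and sugar genes contributed some of the largest higher interactions. Of 29 measured, 7 were higher and 3 lower (7 and 2 without untreated wild-type replicate 2), with 5 higher and 1 lower without wild-type MLD replicate 1, 5 and 0 with line 1 alone and 3 and 1 with line 2 alone. AMY1 measured 4.01, 6.30 and 4.63 in untreated wild type and 5.21, 5.96 and 6.36 in stressed wild type. The 4 untreated aox1a arrays gave 2.85, 3.47, 3.22 and 3.69, and the 4 stressed ones gave 8.92, 8.99, 7.98 and 8.10. AMY1, an alpha-amylase, was lower in untreated aox1a and higher in stressed aox1a than in wild type, with no overlap. Its interaction was 4.33 ± 0.71 (SE, adjusted p = 0.00654), and it was called in both lines and whichever array was left out. cwINV6 stood at 5.23, 6.78 and 4.80 in untreated wild type and at 3.59, 5.95 and 5.41 in wild type under MLD. Untreated aox1a gave 2.23, 3.61, 3.47 and 3.78 and stressed aox1a 7.33, 7.42, 5.82 and 6.31. cwINV6 belongs to the cell wall invertase family. Its stressed values overlapped between genotypes and its untreated ones did not, and the interaction was 4.07 ± 0.91 (SE, adjusted p = 0.0168), or 3.06 (adjusted p = 0.12) with line 2 alone. TMT2 read 8.73, 9.11 and 8.94 in untreated wild type and 9.53, 9.37 and 9.30 in wild type under MLD. For aox1a they were 8.13, 8.10, 8.00 and 8.33 untreated and 10.38, 10.45, 10.54 and 10.60 under stress. TMT2, a sugar transporter of the vacuole membrane that was named after its values were seen, had an interaction of 1.88 ± 0.14 (SE, adjusted p = 0.000717). SWEET16, a sugar transporter of the vacuole membrane, was lower at -0.58 ± 0.12 (SE, adjusted p = 0.0142). It was not called with line 1 alone, at -0.445 (adjusted p = 0.0647), or with all 40 arrays in 1 fit (adjusted p = 0.238).

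Drought and abscisic acid genes did not move as a block. Of 11 measured, 3 had a higher and 2 a lower interaction (2 and 1 without untreated wild-type replicate 2, and 1 and 1 with line 2 alone), and the median was -0.04. Only 6 of the 11 reached a mean of 5 in any group. AtLEA4-1, LEA and LEA18 lay at the floor on all arrays, so the median says little about the expressed members. HIS1-3 measured 7.44, 9.17 and 7.84 in untreated wild type and 7.57, 8.91 and 8.21 in stressed wild type. Values of 4.50, 5.67, 4.55 and 6.23 were found in untreated aox1a, and of 10.75, 10.13, 9.56 and 10.22 in stressed aox1a. HIS1-3 encodes a linker histone known to be induced by drought. In wild type the values under MLD lay within the untreated range, whereas the aox1a values went from below to above all of them, giving an interaction of 4.84 ± 0.81 (SE, adjusted p = 0.00713) (4.33 without untreated wild-type replicate 2). COR47 stood at 11.39, 12.79 and 11.94 in untreated wild type and at 12.52, 12.91 and 12.33 in wild type under MLD. On the aox1a arrays it stood at 10.51, 10.66, 10.69 and 11.61 untreated and at 13.64, 13.54, 13.71 and 13.55 under MLD. COR47, a dehydrin, had an interaction of 2.19 ± 0.46 (SE, adjusted p = 0.0137), and of 1.93 (adjusted p = 0.0695) with line 2 alone. COR15B, a chloroplast protein of cold and drought tolerance, lay lower in stressed aox1a, with -1.43 ± 0.39 (SE, adjusted p = 0.0323); without untreated wild-type replicate 2 its interaction was -1.24 (adjusted p = 0.0701), and it was called in 6 of the 14 fits that each left out 1 array. The other lower one, AT2G46140 at -1.17 ± 0.28 (SE, adjusted p = 0.0209), was called in all 14, but not with line 1 alone, at -0.96 (adjusted p = 0.0768). LEA4-5 was the third higher one, near the floor. It read 2.48 to 3.62 in stressed aox1a and 1.80 to 2.285 on the other arrays. LTI30 (0.99) and COR15A (-1.47) were not called.

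STZ, a zinc-finger repressor induced by many stresses, was among the largest higher interactions. STZ read 5.92, 7.86 and 5.11 in untreated wild type and 6.61, 7.30 and 8.60 in wild type under MLD. Mutant arrays showed 3.20, 4.40, 3.35 and 4.21 untreated and 9.85, 8.68, 9.40 and 9.10 under MLD. Untreated aox1a lay below and stressed aox1a above the matching wild-type arrays. The interaction was 4.26 ± 1.01 (SE, adjusted p = 0.0201), and 3.82 (adjusted p = 0.0546) without wild-type MLD replicate 1 and 4.27 (adjusted p = 0.0683) with line 2 alone. CML41, a calmodulin-like protein, rose in aox1a from a mean of 2.81 to 6.22, with an interaction of 3.46 ± 0.81 (SE, adjusted p = 0.019). It was not called without wild-type MLD replicate 1 at 3.20 (adjusted p = 0.0531) or with line 2 alone at 2.22 (adjusted p = 0.187). AAE16, an acyl-activating enzyme, had an interaction of 3.76 ± 0.74 (SE, adjusted p = 0.0111), and of 3.06 (adjusted p = 0.0714) with line 2 alone.

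Mitochondrial transcripts showed higher interactions in a few genes. Of 11 measured mitochondrially encoded genes, 5 were higher (nad5, nad9, nad4, cox1 and cox2) and none lower, against a background of 10.5%. The count was 3 without untreated wild-type replicate 2 and 2 without wild-type MLD replicate 1, without line 1 untreated replicate 1 or without line 2 MLD replicate 2, and 1 with line 2 alone. nad9 measured 5.95, 6.01 and 5.22 in untreated wild type and 4.34, 4.77 and 4.88 in stressed wild type. The aox1a arrays read 4.76, 5.69, 5.12 and 4.75 untreated and 5.82, 6.28, 5.74 and 5.78 under MLD. This subunit of complex I was lower under MLD in wild type with no overlap and higher in stressed aox1a than in stressed wild type. Its interaction was 1.89 ± 0.39 (SE, adjusted p = 0.0132). nad5 stood at 5.01, 5.24 and 3.92 in untreated wild type and at 2.72, 3.23 and 2.77 in wild type under MLD. In aox1a the values were 2.43, 3.44, 2.80 and 3.38 untreated and 4.26, 4.80, 4.57 and 3.13 under MLD. This other complex I subunit lay at or near the floor in stressed wild type and in untreated aox1a, with an interaction of 2.99 ± 0.63 (SE, adjusted p = 0.0137), or 2.57 (adjusted p = 0.0737) with line 2 alone. The others were nad4 (1.33), cox1 (1.38) and cox2 (0.98), while nad7, matR and nad6 were near the floor in all groups.

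Among nuclear genes of the respiratory chain, SDH1-1 and SDH2-2, subunits of succinate dehydrogenase, went opposite ways. SDH1-1 read 8.79, 9.42 and 8.87 in untreated wild type and 9.44, 9.50 and 9.25 in wild type under MLD. The 4 untreated aox1a arrays gave 8.48, 8.66, 8.75 and 8.76, and the 4 stressed ones gave 10.30, 10.18, 10.25 and 9.99. SDH1-1 was higher in stressed aox1a than on all other arrays, with an interaction of 1.14 ± 0.21 (SE, adjusted p = 0.00881). SDH2-2 had an interaction of -0.75 ± 0.16 (SE, adjusted p = 0.0132); its untreated aox1a values lay above those of wild type and its stressed values overlapped. Of 5 genes of alternative respiration, which here hold no alternative oxidase, NDB1, an external NAD(P)H dehydrogenase, was lower at -1.26 ± 0.34 (SE, adjusted p = 0.0293) but was called in only 6 of the 14 fits that each left out 1 array. NDB2 (0.66) and NDC1 (-0.07) were not called, and NDB3 and NDB4 were at the floor. Of 17 genes of the mitochondrial stress response 2 were higher and 3 lower, and the median was -0.00 beside -0.01 over all genes. Only 6 of the 17 reached a mean of 5 in any group, so the median says little about the expressed members. Without untreated wild-type replicate 2 there were 2 of each, without line 1 untreated replicate 1 a single lower one was left, and with line 2 alone there were none higher and 1 lower. The higher ones were AT1G05060, at 1.12, and AT5G43450. Both were called whichever array was left out. With line 2 alone they were not called, at 1.07 (adjusted p = 0.0582) and 0.71 (adjusted p = 0.168). The lower ones were AT2G21640 (-1.56 ± 0.46 (SE, adjusted p = 0.0396)), called in 4 of the 14 fits that each left out 1 array and with neither line alone, AT2G41730 (-1.24 ± 0.24 (SE, adjusted p = 0.011)), called whichever array was left out, and AT2G03130, whose interaction of -0.12 lay at the floor of the scale.

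Of 11 oxidative and high light stress genes, 4 had a higher and 2 a lower interaction, with and without untreated wild-type replicate 2, 2 and 1 without wild-type MLD replicate 1, and 1 of each with line 2 alone. STZ, described above, was the largest of the 4 higher ones, at 4.26. TAPX measured 9.84, 9.07 and 9.83 in untreated wild type and 9.58, 9.20 and 9.34 in stressed wild type. Untreated aox1a gave 10.61, 10.48, 10.46 and 10.32 and stressed aox1a 8.05, 7.96, 8.17 and 8.24. TAPX, the thylakoid ascorbate peroxidase, was higher in untreated aox1a and lower in stressed aox1a than in wild type, with an interaction of -2.15 ± 0.25 (SE, adjusted p = 0.00292). VTC4, an enzyme of ascorbate synthesis, was lower at -1.91 ± 0.49 (SE, adjusted p = 0.025), and was called in 10 of the 14 fits that each left out 1 array. GR1, a glutathione reductase, was higher at 0.71 ± 0.17 (SE, adjusted p = 0.0214), and 0.60 (adjusted p = 0.106) with line 2 alone. MSRB6, a methionine sulfoxide reductase named among the largest lower interactions, gave a larger value. MSRB6 stood at 8.68, 5.86 and 7.82 in untreated wild type and at 6.75, 6.33 and 6.99 in wild type under MLD. For aox1a they were 9.61, 9.22, 9.15 and 9.79 untreated and 3.20, 3.17, 3.21 and 3.59 under stress. Its stressed aox1a values lay between 3.17 and 3.59 and the lowest other value was 5.86, and its interaction was -5.39 ± 0.79 (SE, adjusted p = 0.00495).

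Glutathione transferases split both ways. Of 14 measured, 3 were higher and 5 lower, and the 5 lower calls held in number whichever array was left out and with either line alone. The 3 higher calls were 1 without wild-type MLD replicate 1 and none with line 2 alone. GSTU18 read 8.85, 7.57 and 8.89 in untreated wild type and 8.15, 8.26 and 8.26 in wild type under MLD. Values of 9.66, 9.58, 9.54 and 9.18 were found in untreated aox1a, and of 7.02, 6.61, 6.81 and 6.59 in stressed aox1a. GSTU18 had an interaction of -2.51 ± 0.41 (SE, adjusted p = 0.00672). GSTU20 measured 11.12, 11.25 and 11.67 in untreated wild type and 12.94, 11.88 and 12.51 in stressed wild type. On the aox1a arrays it stood at 11.65, 11.39, 11.68 and 12.25 untreated and at 9.84, 11.04, 10.97 and 10.31 under MLD. GSTU20 had higher values under MLD in wild type and lower ones in aox1a, and an interaction of -2.30 ± 0.49 (SE, adjusted p = 0.0146). GSTU16 and GSTL3 were higher at 1.26 and 0.81; without wild-type MLD replicate 1 they were 1.18 (adjusted p = 0.0534) and 0.78 (adjusted p = 0.0593). GSTU28 was called at 0.27 with all groups near the floor. Of 51 glycosyltransferases of the UGT family 9 were higher and 3 lower, and 6 and 3 without untreated wild-type replicate 2. With 1 array left out the counts ran from 5 to 11 higher and from 0 to 3 lower, and with line 2 alone they were 4 and 0. UGT73C1 read 2.27 to 2.49 on all arrays but the 4 of stressed aox1a, which read 4.87, 3.54, 5.05 and 5.75, with an interaction of 2.41 ± 0.39 (SE, adjusted p = 0.00632).

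Hormone and defence genes gave single large values. PDF1.2 stood at 6.22, 5.45 and 6.19 in untreated wild type and at 4.51, 3.32 and 5.24 in wild type under MLD. Mutant arrays showed 9.01, 9.88, 8.89 and 7.44 untreated and 2.63, 2.63, 2.77 and 2.60 under MLD. PDF1.2, a defensin known as a marker of jasmonate and ethylene signalling, was higher in untreated aox1a and at the floor in stressed aox1a, with an interaction of -4.55 ± 0.70 (SE, adjusted p = 0.00558). Its close copy PDF1.2b, whose probe set may share signal with it, gave -2.74 ± 0.43 (SE, adjusted p = 0.00594). EIN3, the central transcription factor of ethylene signalling, was higher at 1.09 ± 0.21 (SE, adjusted p = 0.0111), and 0.99 (adjusted p = 0.0545) with line 2 alone. These were the 3 calls among 10 jasmonate, ethylene and wounding genes. GID1B, a gibberellin receptor, rose in aox1a by 4.95 ± 0.59, with an interaction of 3.28 ± 0.90 (SE, adjusted p = 0.0324), which was called in 5 of the 14 fits that each left out 1 array. IAA29, an auxin response repressor, fell in both genotypes and further in aox1a, to the floor, with an interaction of -1.58 ± 0.38 (SE, adjusted p = 0.0212), -1.62 (adjusted p = 0.05) without wild-type MLD replicate 1 and -0.68 (adjusted p = 0.16) with a pseudocount of 16. None of 3 salicylic acid genes (SAG101, WRKY53 and GRX480) and none of 4 glucosinolate genes was called.

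Of the transcription factors measured, 3 of 7 WRKY genes had a higher interaction and 1 a lower one, and without untreated wild-type replicate 2 there was 1 each. The higher WRKY47 (1.27 ± 0.39 (SE, adjusted p = 0.0467)) was called in 3 of the 14 fits that each left out 1 array, and the lower WRKY20 (-0.51 ± 0.14 (SE, adjusted p = 0.0307)) in 6. NAC014, the only NAC factor matched to its list, was higher at 1.31 ± 0.29 (SE, adjusted p = 0.0161) and was called in all 14. None of 3 ethylene response factors was called. GIGANTEA (GI), a gene of the circadian clock and of flowering time, was the 1 call among 4 clock and flowering genes. GI read 9.22, 9.84 and 9.35 in untreated wild type and 9.56, 9.64 and 9.57 in wild type under MLD. The aox1a arrays read 8.74, 9.07, 8.72 and 9.01 untreated and 9.96, 10.07, 9.78 and 10.25 under MLD. Its stressed aox1a values rose by 1.13 over the untreated ones, and the interaction was 1.01 ± 0.24 (SE, adjusted p = 0.0193), or 1.03 (adjusted p = 0.0639) with line 2 alone.

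Of 9 heat shock genes 2 had a higher interaction and none a lower one. They were Fes1A (0.80 ± 0.20 (SE, adjusted p = 0.0241)), an exchange factor of HSP70 chaperones, and Hop1 (0.50 ± 0.13 (SE, adjusted p = 0.0241)), a co-chaperone, each called in 11 of the 14 fits that left out 1 array and neither with line 1 alone or line 2 alone. Neither was called without wild-type MLD replicate 1 or without line 1 untreated replicate 1. Serine carboxypeptidase-like genes numbered 29, with 2 higher and 6 lower (1 and 3 without untreated wild-type replicate 2, and 0 and 1 with line 2 alone). SCPL45 was lower at -2.14 ± 0.43 (SE, adjusted p = 0.0119) and was called whichever array was left out. Of 23 cytochrome P450 genes 1 was higher and 1 lower, and neither was called without untreated wild-type replicate 2. Of 22 growth hormone genes 3 were higher and 1 lower, but none was higher without wild-type MLD replicate 1, line 1 MLD replicate 1, line 1 untreated replicate 1 or line 2 untreated replicate 1, none lower without wild-type MLD replicate 1, and none either way with line 2 alone. ARL, a gene of organ growth, was higher at 1.65 ± 0.42 (SE, adjusted p = 0.0257), called in 9 of the 14 fits. Of 8 calcium signalling genes 2 were higher and 1 lower, 1 higher and none lower without untreated wild-type replicate 2, and none higher without wild-type MLD replicate 1 or with line 2 alone.

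**Figure D3:**
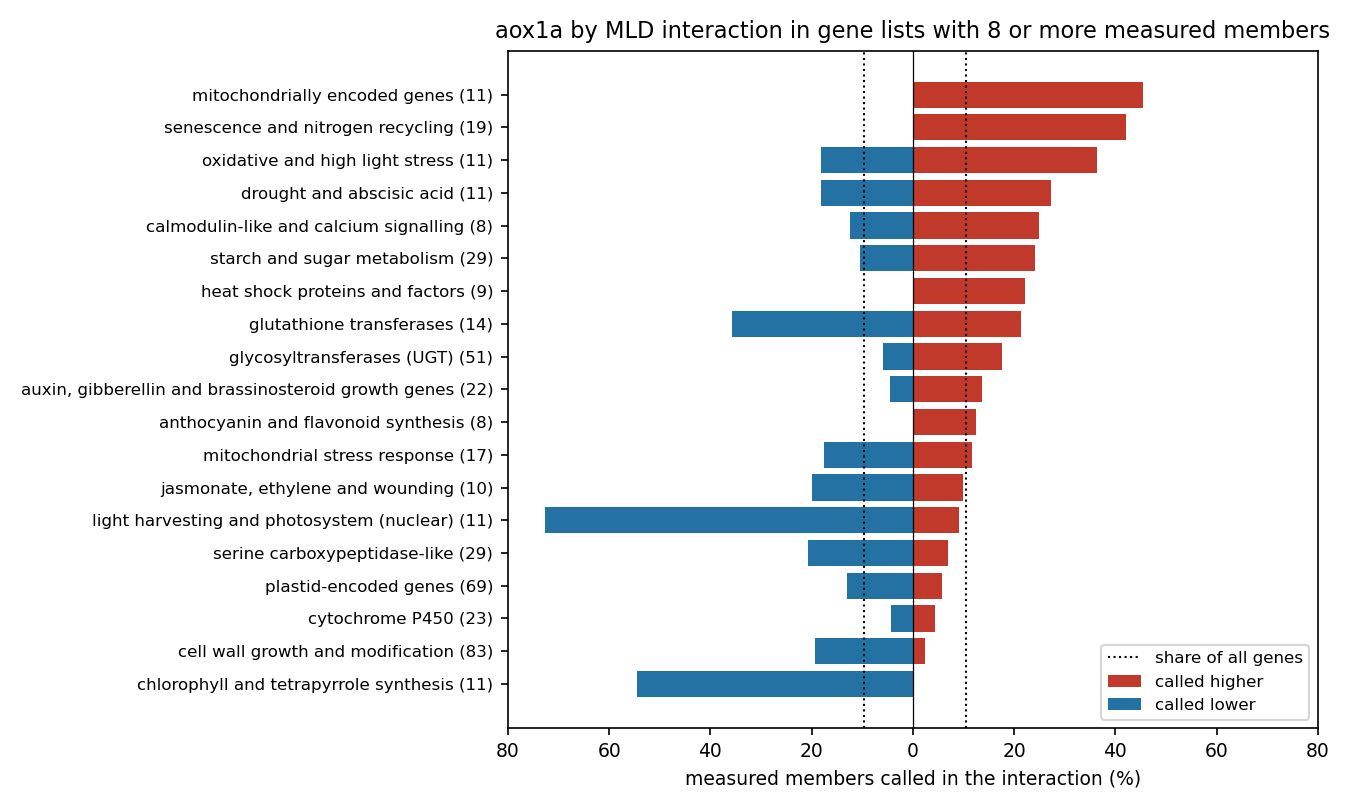
Bars give the percentage of measured members of each gene list whose aox1a by MLD interaction was called higher (red, to the right) or lower (blue, to the left), for lists with 8 or more measured members, whose number stands in brackets. Dotted lines mark the shares over all genes, 10.5% higher and 9.57% lower. The photosystem list has 8 of 11 members called lower and the senescence list 8 of 19 called higher.

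Most anthocyanin genes rose in both genotypes. Of 8 measured, 5 rose under MLD in each, and 1 had a called interaction. UF3GT measured 2.11, 3.21 and 2.47 in untreated wild type and 10.98, 10.10 and 11.78 in stressed wild type. In aox1a the values were 2.06, 2.29, 2.32 and 2.25 untreated and 12.14, 12.55, 12.07 and 12.58 under MLD. UF3GT, a glycosyltransferase of anthocyanin synthesis, rose by 8.36 in wild type and 10.11 in aox1a, and its interaction of 1.75 ± 0.55 (SE, adjusted p = 0.0495) was 1.44 (adjusted p = 0.105) without untreated wild-type replicate 2 and was called in 2 of the 14 fits that each left out 1 array. DFR (1.77 ± 0.74, adjusted p = 0.119) and AT5MAT (2.35 ± 0.80, adjusted p = 0.0648) had interactions of similar size that were not called. The errors allow a difference of several-fold, so these values do not show that the responses were alike.

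Some genes responded to MLD in wild type but not, or oppositely, in aox1a. GLC stood at 3.16, 3.10 and 2.90 in untreated wild type and at 7.16, 5.51 and 6.54 in wild type under MLD. The 4 untreated aox1a arrays gave 2.41, 2.70, 2.65 and 3.15, and the 4 stressed ones gave 2.19, 2.19, 2.42 and 2.40. GLC (AT1G65450) rose in all 3 stressed wild-type arrays and in no stressed aox1a array. Its interaction was -3.78 ± 0.46 (SE, adjusted p = 0.00304), with a wild-type change of 3.35 ± 0.35 (adjusted p = 0.00693) and an aox1a change of -0.43 ± 0.30 (adjusted p = 0.255). GH9B8 read 4.41, 3.11 and 3.65 in untreated wild type and 6.85, 5.06 and 6.91 in wild type under MLD. Untreated aox1a gave 5.36, 4.67, 5.15 and 4.58 and stressed aox1a 2.88, 2.52, 2.88 and 3.50. GH9B8, an endoglucanase-family gene, rose in wild type by 2.55 ± 0.53 and fell in aox1a by 2.00 on the log2 scale, with an interaction of -4.55 ± 0.70 (SE, adjusted p = 0.00562). SIM measured 5.78, 6.50 and 6.16 in untreated wild type and 6.90, 6.96 and 7.00 in stressed wild type. For aox1a they were 6.35, 6.14, 6.32 and 6.14 untreated and 5.88, 5.63, 5.87 and 5.76 under stress. SIM, an inhibitor of cyclin-dependent kinases known from endoreduplication in trichomes, gave -1.26 ± 0.21 (SE, adjusted p = 0.00709) with stressed wild type above all other arrays. All 3 calls held whichever array was left out and with either line alone. AT3G19620 (-2.98) and AT4G35320 (-2.82) also rose in wild type and were not called in aox1a. AT1G63310 (-3.82) rose in wild type by 2.09 and had a change of -1.73 in aox1a. The tables used give these 3 no name.

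Many of the largest interactions belonged to genes with no name in the tables used. AT5G22580 stood at 11.68, 9.74 and 10.79 in untreated wild type and at 10.51, 9.84 and 9.30 in wild type under MLD. Values of 11.47, 10.97, 11.44 and 11.09 were found in untreated aox1a, and of 2.25, 2.32, 4.31 and 2.38 in stressed aox1a. The stressed aox1a values of AT5G22580 lay between 2.25 and 4.31 and all others between 9.30 and 11.68. Its interaction of -7.58 ± 0.78 (SE, adjusted p = 0.00216) was the largest lower one among genes chosen by the rule, and since some values reached the floor it is measured only in part. AT1G05340 read 2.58, 3.00 and 2.58 in untreated wild type and 2.57, 2.85 and 2.72 in wild type under MLD. On the aox1a arrays it stood at 2.56, 2.73, 2.45 and 2.72 untreated and at 7.50, 8.39, 6.89 and 6.86 under MLD. AT1G05340 was at the floor on every array but the 4 of stressed aox1a, and its interaction was 4.80 ± 0.28 (SE, adjusted p = 0.000161). Other large lower interactions were those of AT2G10940 (-6.55), AT1G66100 (-5.73), AT5G44020 (-5.07), DRT100 (-5.22, and -4.58 (adjusted p = 0.0533) with line 2 alone), named for tolerance of DNA damage, and WLIM2a (-5.11), an actin-binding LIM protein. Of the 2250 probe sets called lower, 493 had a stressed aox1a mean below 3, and 21 of these had an untreated aox1a mean of at least 8.

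The MLD responses of line 1 and line 2 differed at 16 probe sets (0.0703%), and this count ran from 6 to 152 when each array was left out. Line 1 alone against wild type gave 4193 interaction calls and line 2 alone 1449. Of the 110 genes named by the rule, 88 were called with line 1 alone and 49 with line 2 alone, and all 110 kept the sign of their interaction in each. For genes chosen by size or response class the rule itself required the same sign in both lines, so this agreement is no evidence for them. WRKY42 measured 2.23, 2.24 and 2.23 in untreated wild type and 2.22, 2.28 and 2.21 in stressed wild type. Mutant arrays showed 2.23, 2.22, 2.19 and 2.22 untreated and 3.22, 3.44, 4.04 and 4.08 under MLD. WRKY42 was at the floor outside stressed aox1a, where line 2 exceeded line 1, with an interaction of 1.48 ± 0.07 (SE, adjusted p = 7.77e-05) and a line difference of -0.75 ± 0.09 (adjusted p = 0.0208).

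The rpoTmp mutant, measured against its own wild type on 14 other arrays, served as a second mutant for comparison. RPOTMP is an RNA polymerase of organelles, and rpoTmp plants were 5 weeks old and their wild type 4 weeks. The rpoTmp interaction was called at 3397 probe sets (14.9%). Of the 5093 aox1a calls 1792 were called there too, 1775 with the same sign, which is 34.9% of the aox1a calls and 52.3% of the rpoTmp calls. At 88.7% of the aox1a calls the 2 estimates had the same sign, as they did at 69% of all probe sets. The interactions themselves differed at 147 probe sets (0.646%), 82 higher (0.361%) and 65 lower (0.286%) in aox1a, and at 93 of the 5093. This count ran from 82 to 715 when each array of either set was left out, the highest without rpoTmp line 2 MLD replicate 1, so it depends on single arrays.

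Photosystem, wall and recycling genes had similar counts in the rpoTmp interaction. There 8 of the 11 photosystem genes, 7 of the 11 chlorophyll genes and 15 of the 83 wall genes were lower (8.03% of all probe sets were), and 7 of the 19 senescence genes were higher (6.91% were). LHCB4.2 gave -2.82 in rpoTmp against -2.55 in aox1a, and HIS1-3 4.62 against 4.84. Of the anthocyanin genes 5 of 8 were higher in the rpoTmp interaction and 1 of 8 in that of aox1a, but none of their differences between the interactions was called. Nor was that of nad5 called, at 2.99 in aox1a and -0.14 in rpoTmp (adjusted p of the difference = 0.108), or that of AMY1, at 4.33 and 1.82 (adjusted p = 0.45).

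The test of the difference named few genes. AT3G28270 stood at 5.83, 7.62 and 6.71 in untreated wild type and at 7.74, 8.59 and 8.05 in wild type under MLD. The aox1a arrays read 4.76, 5.57, 5.48 and 5.18 untreated and 10.66, 10.27, 10.42 and 10.62 under MLD. AT3G28270 had an interaction of 3.84 ± 0.56 (SE, adjusted p = 0.00501) in aox1a and of 0.21 ± 0.54 in rpoTmp, a difference of 3.62 ± 0.80 (adjusted p = 0.0471). WRKY42 differed by 1.42 ± 0.08 (adjusted p = 1.88e-08), with 0.06 in rpoTmp. AT1G63310, lower in aox1a at -3.82, was -0.06 in rpoTmp (difference -3.75 ± 0.71, adjusted p = 0.0233). SWEET2 read 3.43, 3.17 and 4.12 in untreated wild type and 3.14, 3.21 and 2.88 in wild type under MLD. In aox1a the values were 5.79, 5.07, 5.13 and 4.71 untreated and 3.88, 3.33, 3.12 and 3.22 under MLD. SWEET2, a sugar transporter of the vacuole membrane, had opposite interactions, -1.29 ± 0.37 (SE, adjusted p = 0.0375) in aox1a and 1.41 ± 0.25 in rpoTmp. Its aox1a interaction was called in 4 of the 14 fits that each left out 1 array.

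**Figure D4:**
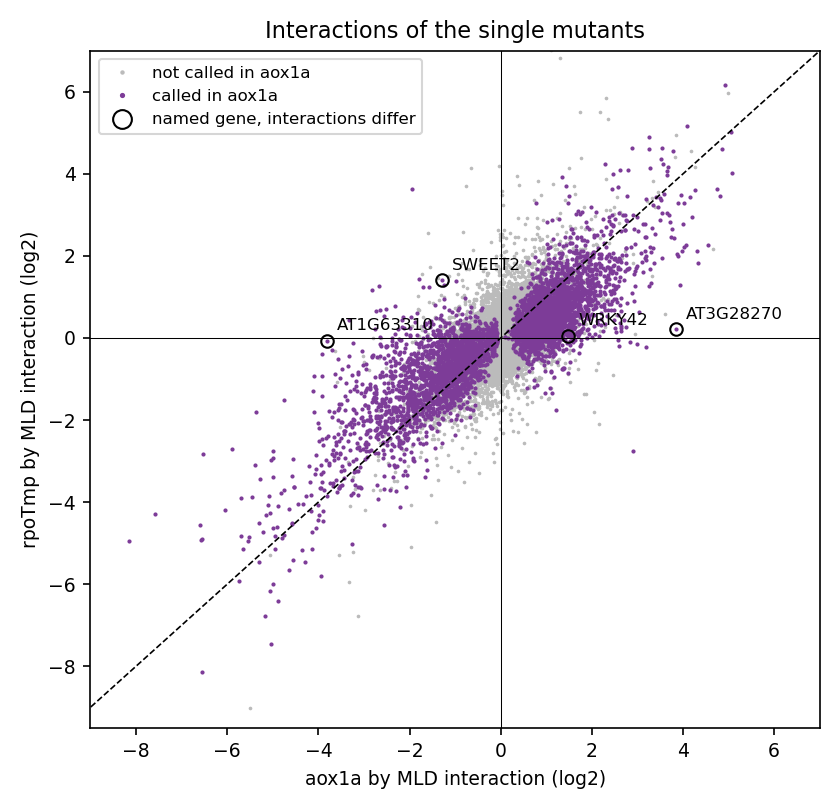
The rpoTmp by MLD interaction (vertical axis, log2) is plotted against the aox1a by MLD interaction (horizontal axis, log2) for 22746 probe sets, with those called in aox1a in purple. The dashed line marks equal interactions, and circles mark the 4 genes chosen by the naming rule whose interactions differed by the test. Most purple points lie in the quadrants of equal sign, and 1775 of them were called with the same sign in both.

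The aox1a:rpoTmp double mutant had an interaction at 7425 probe sets (32.6%). Of the 5093 aox1a calls 2378 were called there too, 434 with the same sign and 1944 with the opposite sign. The 2 estimates had the same sign at 30.2% of the aox1a calls and at 38.5% of all probe sets. The double set was compared with its own wild type, its untreated and stressed plants have different ages in the labels (5 and 4 weeks), and no array is shared with the aox1a set. The difference between these 2 interactions was not tested.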

How the data were processed

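Leaf RNA of 40 samples was labelled with biotin by the standard Affymetrix protocol, per the labels' protocols, and hybridised to Arabidopsis ATH1 arrays with 22810 probe sets. The deposited table holds 1 linear intensity per probe set and array. The submitters' processing notes name Affymetrix Expression Console, MAS5, GCRMA and Partek 6.5, with no role or order, so the background correction behind these intensities is not known here. Array medians lay between 25.0 and 26.7 on the linear scale. After 64 controls were left out, log2 was taken with no pseudocount and each probe set was fitted with limma 3.58.1 (lmFit and eBayes) in R 4.3.3, with 1 coefficient per group of the 14 arrays (8 residual degrees of freedom) and Benjamini-Hochberg adjustment over 22746 probe sets. Every adjusted p in the text is from such a fit. The aox1a and rpoTmp interactions were compared in 1 fit of their 28 arrays.

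Genes were taken from the platform table, with names from RefSeq TAIR10.1. Of the tested probe sets 13513 list a single gene, 503 list several and 8730 none. Where a gene had several, the brightest stood for it, which gave 13355 genes. Members of a list termed measured are those among these genes that were matched to it, so the arrays may hold further members of a family. Named genes were up to 15 each way by size of the interaction (group mean of at least 5, same sign in both lines), up to 5 per response class, and up to 2 called members each way of each of 28 gene lists, of which lists with no more than 10 measured members may be given in full. Some genes outside this rule are marked as named after their values were seen. Further members of longer lists, given beside the named ones, also lie outside the rule and carry no such mark. The members, the lists and the rule were chosen with earlier results of these data known.

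In a test on simulated data for 22746 probe sets of this interaction, 62%, 88%, 96% and 100% of 50 changes of 1, 2, 3 and 4 on the log2 scale were called, with 9 unchanged probe sets called. The noise was normal and independent between arrays, around the same mean in all groups, and far fewer probe sets were changed than were called in the data. No simulated array stood apart as untreated wild-type replicate 2 does, so the test cannot show how many calls such an array brings. Alternatives were a filter on dim probe sets, a pseudocount of 16, quantile normalization, all 40 arrays in 1 fit, array weights, replicate number as a block, each mutant line alone and leaving out each array.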

Additional observations from a re-analysis of the deposited data

Results flagged for a closer look

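Tests of the difference between the aox1a and the rpoTmp interaction, each against its own wild type, picked out 8 of the named genes and gene list members. AT3G28270 differed by 3.62 ± 0.80 on the log2 scale (adjusted p = 0.0471), AT1G63310 by -3.75 ± 0.71 (adjusted p = 0.0233), SWEET2 by -2.71 ± 0.46 (adjusted p = 0.012) and WRKY42 by 1.42 ± 0.08 (adjusted p = 1.88e-08), as given above. The other 4 are named here because of this test. NDB3, an external NAD(P)H dehydrogenase of mitochondria, had an interaction of 0.06 in aox1a, where it was at the floor, and of 2.26 in rpoTmp, a difference of -2.20 ± 0.40 (adjusted p = 0.0184). GSTU27, a glutathione transferase, had -1.48 in aox1a and -0.15 in rpoTmp, a difference of -1.34 ± 0.24 (adjusted p = 0.0168). CSLC6, a glucan synthase-like gene, differed by 1.58 ± 0.35 (adjusted p = 0.0498). AT2G04070 differed by -1.50 ± 0.27 (adjusted p = 0.0184). It read 2.58 to 3.33 on the arrays of the aox1a set, near the floor.

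Tests of the difference between the aox1a lines picked out WRKY42 and GSTU28. The MLD response of line 1 minus that of line 2 was -0.75 ± 0.09 for WRKY42 (adjusted p = 0.0208) and 0.46 ± 0.04 for GSTU28 (adjusted p = 0.00632), whose values were near the floor in all groups. Groups held 2 or 3 arrays, too few for a check of single arrays that stand apart by gene.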

How the results depend on the processing

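The interaction was called at 5093 probe sets with all arrays, at 2580 to 5422 when 1 array was left out, and at 1449 with line 2 alone. It was called at 4583 with the replicate number as a block, and at 4193 to 6602 under the other alternatives. The wild-type response count of 763 was 1216 with the filter on dim probe sets, 1986 with all 40 arrays, 3835 with array weights, 333 with the replicate block and 102 to 3119 with 1 array left out. The aox1a response count of 11837 was 8529 with the filter, 6992 with line 2 alone and 10228 to 11800 with 1 array left out. The difference between lines, at 16 probe sets, was called at 2 with the filter, 5 with the block and 6 to 152 with 1 array left out. The difference between the aox1a and rpoTmp interactions, at 147, was called at 329 with all 40 arrays, 258 with array weights, 80 with line 1 alone, 79 with line 2 alone and 82 to 715 with 1 array left out.

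The classes depended on the wild-type calls. With 1 array left out the counts ran from 2456 to 5165 gained, 13 to 166 lost, 21 to 933 amplified, 2 to 20 weakened, 4 to 85 reversed and 53 to 234 in neither. With line 2 alone they were 1247 gained, 61 lost, 66 amplified, 1 weakened, 24 reversed and 50 in neither, and with line 1 alone 1 was weakened. With all 40 arrays 208 were lost, 599 amplified, 4 weakened and 117 reversed, and with array weights 383, 995, 21 and 225. The filter gave 369 amplified, and the replicate block 44 lost and 54 amplified. Same-numbered arrays did not deviate together throughout (correlations of deviations from group means between -0.21 and 0.53), so the numbers were not taken as pairs. The cause of these shifts was not tested.

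Of the 110 named genes none changed the sign of its interaction under any alternative. With each line alone, the naming rule had required this of the genes chosen by size or response class. Still called were 102 of the 105 that passed the filter, 100 with the pseudocount, 103 with quantile normalization, 100 with all 40 arrays, 107 with array weights, 100 with the block, 88 with line 1 alone, 49 with line 2 alone and 76 to 101 with 1 array left out, the fewest without wild-type MLD replicate 1. The number of arrays limits the precision, and changes that reach the floor of the scale are measured only in part.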
